A study of Cyanidioschyzon merolae strain 10D with 6 samples.

Results

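Long interspersed nuclear elements (LINEs) of the red alga Cyanidioschyzon merolae strain 10D were compared between wild-type cells and the Cme(z)-1 mutant. All copies that the deposited transposable element (TE) annotation assigns to the class LINE and places on one of the 20 nuclear chromosomes were taken, which gave 232 copies of 5074 annotated TE copies. The rule used the annotation alone and no expression value. The copies fall into 2 repeat families, rnd-1_family-24 with 53 copies and rnd-1_family-25 with 179 copies. The annotation gives the first no superfamily and calls the second Deceiver. A further 2 copies of the class lie on the mitochondrial genome and are not members; neither had a count in any library.

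LINEs are retrotransposons without long terminal repeats. They are transcribed into RNA, and an enzyme with reverse transcriptase activity, which complete elements often encode, copies that RNA into DNA at a new site. Copying in many species stops early, so that most genomes hold a few complete elements among many pieces. Polycomb Repressive Complex 2 (PRC2) methylates lysine 27 of histone H3, a mark found on repressed chromatin, and E(z) is its catalytic subunit.

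Poly(A) RNA was sequenced from 3 samples of wild type 10D and 3 samples of the mutant, whose genotype is labelled Cme(z)-1 and which the series title describes as lacking PRC2 function. Both groups grew in the same acidic medium at constant light, and nothing labelled sets them apart other than the genotype. The labels name a single mutant line, so any other trait of that line goes with the group, and they do not say whether the 3 samples of a group came from separate cultures. What the p-values weigh is thus the scatter of the sequenced samples, and this scatter may be technical. The libraries held 7860491 to 10754544 counts. The E(z) gene CMQ156C (chromosome 17, 379207 to 381546) had 1776, 1533 and 1770 counts in wild-type cells and 0 in each mutant library.

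The LINE copies covered 180607 bp in all and lay on all 20 chromosomes, with 3 to 25 copies on each. The families differed in the lengths of their copies. In rnd-1_family-24 the median copy was 2022 bp long, with a range of 81 to 4202 bp, and 17 of the 53 copies measured between 4100 and 4300 bp. One further copy, TE_homo_2966, measured 4002 bp, so that 18 copies reached 4000 bp. In rnd-1_family-25 the median was 284 bp and the longest copy 2112 bp, and 43 of the 179 copies measured between 280 and 300 bp. No copy of rnd-1_family-25 came near 4000 bp. Sequences of the copies were not analysed here, and whether the copies of nearly equal length are alike in sequence was not tested.

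**Figure D1:**
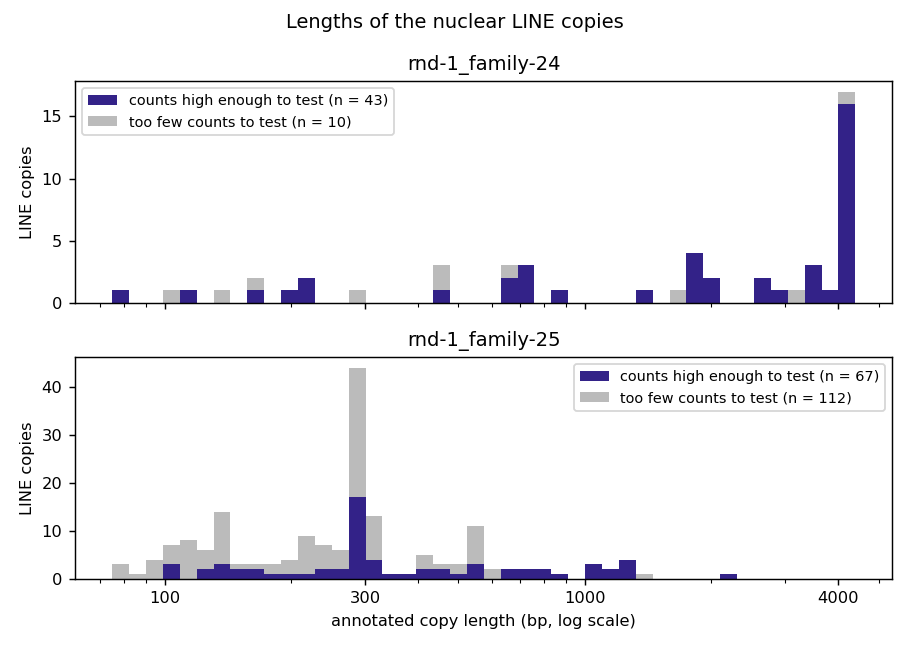
Number of nuclear LINE copies (vertical axis) by annotated length in bp (horizontal log axis) for each family, split by whether the counts were high enough to test. Copies of rnd-1_family-24 pile up at 4100 to 4300 bp (17 copies) and those of rnd-1_family-25 at 280 to 300 bp (43 copies).

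Pieces of both families also adjoined each other. At 8 places a copy of rnd-1_family-24 lay within 5 bp of a copy of rnd-1_family-25, on the same strand in all 8. The pieces overlapped by up to 4 bp or lay at most 1 bp apart. In 7 of the 8 the rnd-1_family-25 piece came after the rnd-1_family-24 piece, read along their strand. In 3 of these pairs the joint length was nearly the same, with 1202 bp for TE_homo_2619 and TE_homo_2620, 1205 bp for TE_homo_3948 and TE_homo_3947, and 1201 bp for TE_homo_4647 and TE_homo_4648. Another 4 pairs spanned 2078, 2092, 2116 and 2285 bp. In the 8th pair, TE_homo_2338 and TE_homo_2339, the rnd-1_family-25 piece came before the other.

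LINE RNA took a small share of all counts, and the share was higher in the mutant. It was 0.482%, 0.496% and 0.481% in wild-type libraries and 0.558%, 0.618% and 0.623% in mutant libraries. The groups did not overlap. The share of all TE copies together was also higher, without overlap. It was 9.05%, 9.23% and 9.38% in wild-type libraries and 10.07%, 11.45% and 10.08% in mutant libraries. Of the counts in TE copies, LINE copies held 5.28% ± 0.132 in wild-type cells and 5.70% ± 0.415 in the mutant (SD, n = 3 each). The mean LINE share of all counts thus moved from 0.486% to 0.600%.

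Most of this gain lay in rnd-1_family-24. Its copies together had 2540, 2555 and 2454 CPM in wild-type libraries and 3147, 3648 and 3545 CPM in mutant libraries. CPM stands for counts relative to library size, scaled to a common library by the TMM method. All mutant libraries lay above all wild-type libraries. The summed counts did not pass the edgeR quasi-likelihood test across all nuclear families and genes (log2 fold change 0.45, SE 0.15, adjusted p = 0.19), in which 4.86% of 144 families were called higher. They passed in DESeq2 (0.45, adjusted p = 1.6e-04). The sums of rnd-1_family-25 were 2304, 2631 and 2277 CPM against 2406, 2759 and 2303 CPM, and overlapped (0.050, SE 0.15, adjusted p = 0.92). That small difference changed sign without mutant replicate 2 (-0.029).

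The family sums hid large differences between copies. A single short copy, TE_homo_3856, held 16.6% to 20.9% of the rnd-1_family-24 counts in wild-type libraries and 24.8% to 27.3% in mutant libraries. With it left out, a check added after seeing the data, the log2 fold change of the family was 0.31 (SE 0.14, adjusted p = 0.34). The 18 copies of 4000 bp or more summed to 1044 ± 82.8 CPM in wild-type libraries and 1437 ± 65.9 CPM in mutant libraries, a ratio of 1.38, and their groups did not overlap. The other copies of the family, TE_homo_3856 aside, summed to 1024 ± 17.3 and 1085 ± 108 CPM, a ratio of 1.06. These sums were not tested. In rnd-1_family-25 the copies of 1000 bp or more summed to 287 ± 29.96 and 381 ± 61.6 CPM, and the shorter ones to 2142 ± 158 and 2083 ± 124 CPM.

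Single copies were tested in one edgeR fit of 7641 genes and TE copies, with p-values adjusted over all of them and an adjusted p under 0.05 called. Of the 232 LINE copies 110 had enough counts, 43 of rnd-1_family-24 and 67 of rnd-1_family-25. Of these 16 were called higher in the mutant and 2 lower. Over all 2776 tested TE copies 7.10% were called higher and 1.04% lower. By family, 14 of the 43 tested copies of rnd-1_family-24 were higher and 2 lower, and 2 of the 67 tested copies of rnd-1_family-25 were higher and none lower (14 of the other 65 had an unadjusted p under 0.05 in either direction, and DESeq2 called 4 LINE copies of both families lower). Without wild-type replicate 1 a single copy of rnd-1_family-25 was higher, and with any 1 library left out a single LINE copy was lower. The share called in rnd-1_family-25, 2.99%, was below that over all TE copies, and that in rnd-1_family-24, 32.6%, above it. The median log2 fold change was 0.34 over the 43 copies, 0.0035 over the 67 copies and 0.067 over all tested TE copies. In 21 of the 43 copies every mutant library lay above every wild-type library, and in 2 below; for the 67 copies the numbers were 8 and 9. Over all tested TE copies these shares were 19.0% above and 8.18% below. A copy of low count could pass the filter through the group where it is higher, so the tested copies do not stand for all members.

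Calls were most frequent among the longest copies. Of the 17 tested copies of 4000 bp or more 9 were higher in the mutant and 1 lower, and the median log2 fold change was 0.92. Of 35 tested copies of that length in other TE classes 3 were higher, with a median of 0.13. The limit of 4000 bp was set after the lengths and folds were seen. From 1000 to under 4000 bp 3 of 23 tested LINE copies were higher (median 0.34), from 300 to under 1000 bp 2 of 28, with 1 lower (median -0.051), and under 300 bp 2 of 42 (median -0.057). Other TE classes had 10.4%, 5.23% and 2.36% of tested copies higher in these 3 ranges. The shorter ranges hold mostly copies of rnd-1_family-25. In rnd-1_family-24 alone 1 of 6 tested copies under 300 bp was higher (16.7%), 2 of 7 from 300 to under 1000 bp (28.6%) and 2 of 13 from 1000 to under 4000 bp (15.4%). These numbers are too small to show whether the share changes with length below 4000 bp. In rnd-1_family-25 all 10 tested copies of 1000 bp or more had a positive log2 fold change, from 0.029 for TE_homo_3773 to 2.96 for TE_homo_550. Of these TE_homo_550 passed the test. The family has 11 copies of this length. The untested one, TE_homo_2310, had 13, 6 and 6 counts in wild-type cells and 12, 5 and 7 in the mutant. In other TE classes 675 of 1117 tested copies of 1000 bp or more had a positive log2 fold change. Of the 10 copies of rnd-1_family-25, TE_homo_550, TE_homo_783, TE_homo_1373 and TE_homo_1826 had at most 11 counts in any wild-type library. They passed the filter through their mutant counts, so a positive sign goes with being tested. The 10 signs are thus a description and no support. Longer copies collect more reads, which makes a difference of a given size easier to call. What part this has in the counts of calls was not tested.

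**Figure D2:**
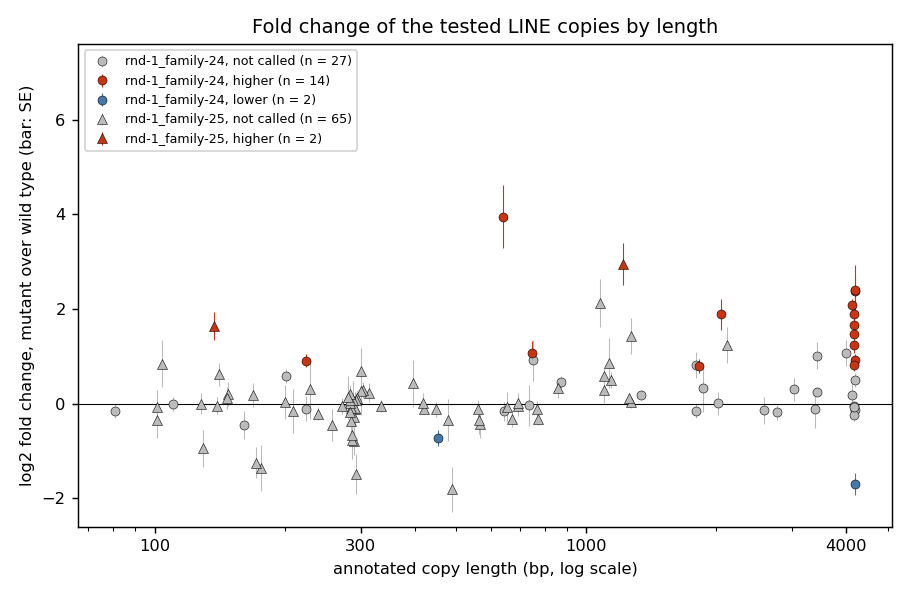
Log2 fold change of the mutant over the wild type (vertical axis, bars are SE) against annotated length in bp (horizontal log axis) for the 110 tested LINE copies. At 4000 bp or more 9 of 17 copies were higher and 1 lower, while most copies under 1000 bp lie near 0.

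The 18 copies of 4000 bp or more are nearly equal in length, and their levels are set side by side here. Of these copies 15 contain a gene model, whose reads may not all be counted for the copy. The levels may thus not be fully comparable. In the wild type they ran from 0.157 CPM per kb for TE_homo_1515, which had 12, 2 and 3 counts there, to 57.6 CPM per kb for TE_homo_1907, with a median of 7.596. In the mutant the same 2 copies stood at the ends, at 0.260 and 52.2 CPM per kb, and the median was 17.003. The 4 copies of highest wild-type level, singled out after their values were seen, did not pass the test. TE_homo_1907 (chromosome 11, 259049 to 263230) had 241 ± 28.7 CPM in wild-type cells and 218 ± 8.36 in the mutant (log2 fold change -0.14, adjusted p = 0.59). TE_homo_1338 had 159 ± 5.03 and 135 ± 25.9 CPM (-0.24, 0.43), TE_homo_3049 had 151 ± 15.6 and 147 ± 6.12 CPM (-0.039, 0.90), and TE_homo_3308 had 107 ± 5.44 and 103 ± 3.71 CPM (-0.063, 0.79). In each of these 4 copies the groups overlapped. The 9 copies called higher ranged from 0.216 to 20.7 CPM per kb in the wild type. The wild-type level also enters the fold change, so the order of the copies by that level is a description.

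**Figure D3:**
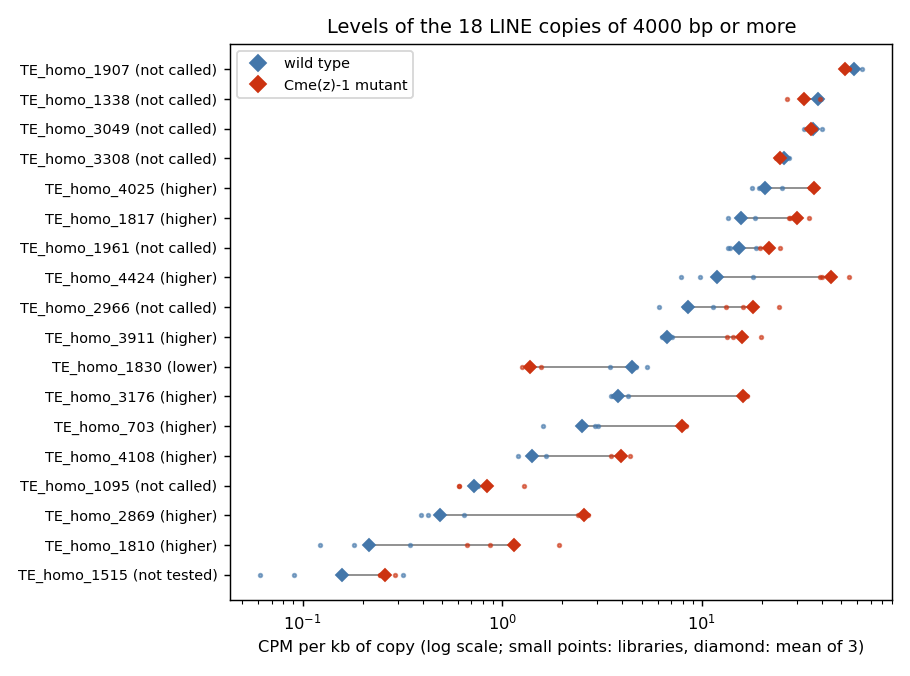
Level in CPM per kb (horizontal log axis) of the 18 LINE copies of 4000 bp or more, ordered by wild-type level. Small points are libraries and diamonds the means of 3; the 4 copies at the top, above 25 CPM per kb in the wild type, show little difference between groups, and TE_homo_1830 is the copy whose mutant level is clearly below its wild-type level.

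Among these long copies TE_homo_3176 (chromosome 16, 296661 to 300782, plus strand) had the lowest p of all LINE copies. It had 14.4, 17.6 and 14.8 CPM in wild-type cells and 64.7, 65.1 and 69.0 CPM in mutant cells. The mutant values were close together and far above the others (4.25-fold, log2 fold change 2.09, SE 0.14, adjusted p = 3.9e-05). TE_homo_4424 (chromosome 20, 27559 to 31728, plus strand) reached the highest mutant level of the raised long copies. Its 75.6, 40.9 and 32.7 CPM in the wild type spread widely, against 167, 227 and 162 CPM in mutant cells (log2 fold change 1.89, SE 0.29, adjusted p = 0.0054). TE_homo_4025 (chromosome 18, 1054689 to 1058861, plus strand) started higher, at 74.1, 105 and 80.5 CPM, and rose to 156, 146 and 156 CPM (0.82, SE 0.13, adjusted p = 0.0085). TE_homo_1817 (chromosome 10, 766049 to 770250, minus strand) is the longest LINE copy. It went from 57.0, 64.7 and 77.2 CPM to 115, 116 and 144 CPM (0.92, SE 0.14, adjusted p = 0.0057).

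A further 3 raised long copies had middling wild-type levels. TE_homo_3911 (chromosome 18, 719484 to 723659) had 27.7, 29.7 and 26.4 CPM in wild-type cells and 55.5, 59.8 and 82.7 CPM in mutant cells, of which replicate 3 was the highest (log2 fold change 1.24, adjusted p = 0.0036). TE_homo_703 (chromosome 5, 458777 to 462951) had 12.6, 12.2 and 6.70 CPM against 32.2, 34.96 and 32.3 CPM (1.66, adjusted p = 0.0048). TE_homo_4108 (chromosome 19, 176017 to 180190) had 45, 54 and 46 counts against 158, 150 and 176 (1.47, adjusted p = 0.0060). None of these groups overlapped. The last 2 were scarce in the wild type. TE_homo_2869 (chromosome 15, 32642 to 36825) had 16, 21 and 13 wild-type counts and 118, 93 and 108 mutant counts (log2 fold change 2.40, SE 0.29, adjusted p = 0.00165). TE_homo_1810 (chromosome 10, 728592 to 732781) had 13, 4 and 6 counts against 30, 30 and 86, with mutant replicate 3 far above the other mutant libraries (2.38, SE 0.55, adjusted p = 0.043). The call of TE_homo_1810 was kept without mutant replicate 1 and lost with any other library left out. The adjusted p was 0.071, 0.11 and 0.12 when wild-type replicate 1, 2 or 3 was left out, and 0.072 and 0.11 when mutant replicate 2 or 3 was left out, and it was 0.068 in limma voom.

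Of the long copies TE_homo_1830 alone fell. It lies on chromosome 10 (807198 to 811391, minus strand), 28087 bp from the end. It had 22.3, 14.5 and 19.6 CPM in wild-type cells and 5.29, 5.56 and 6.53 CPM in mutant cells, a 3.24-fold fall (log2 fold change -1.70, SE 0.24, adjusted p = 0.0042). The raised copies TE_homo_1810 and TE_homo_1817 lie on the same chromosome. TE_homo_1961 (chromosome 11, 457028 to 461210), which was not called, had 57.7, 78.2 and 56.8 CPM against 82.1, 103 and 89.0 CPM (0.51, SE 0.15, adjusted p = 0.11). Its groups did not overlap either, and it passed in DESeq2 (adjusted p = 0.045) and without wild-type replicate 2 (0.027).

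Among the called copies under 4000 bp TE_homo_3856 had the highest level. TE_homo_3856 (chromosome 18, 465851 to 466074, plus strand) is 224 bp long and lies 1821 bp from the nearest gene. It had the highest CPM of all LINE copies in both groups, with 478, 426 and 518 CPM in wild-type cells and 785, 964 and 927 CPM in mutant cells (1.88-fold, log2 fold change 0.91, SE 0.14, adjusted p = 0.0054). The next LINE copies by wild-type level did not pass the test. TE_homo_1588 (rnd-1_family-25, chromosome 9, 785691 to 786463) had 310, 320 and 361 CPM against 240, 285 and 263 CPM (-0.33, SE 0.11, adjusted p = 0.16), with all mutant libraries below all wild-type libraries. TE_homo_2619 (chromosome 14, 23055 to 23697) had 291, 265 and 291 CPM against 191, 219 and 346 CPM (-0.16, adjusted p = 0.76), and mutant replicate 3 was the highest library of all.

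TE_homo_727 (chromosome 5, 509549 to 511370) had 35.3, 44.4 and 37.3 CPM in wild-type cells and 64.6, 77.9 and 61.5 CPM in mutant cells (0.80, adjusted p = 0.013). TE_homo_69 (chromosome 1, 186221 to 188268) had 16, 8 and 11 counts against 60, 43 and 53 (1.89, adjusted p = 0.010). In both the groups were well apart, yet leaving out 1 library ended the call, at an adjusted p of 0.074 for TE_homo_727 without wild-type replicate 1 and 0.056 for TE_homo_69 without mutant replicate 1. TE_homo_3948 (chromosome 18, 831426 to 832066) had 1, 0 and 2 counts in wild-type cells and 20, 22 and 19 in the mutant. The ratio of its depth-adjusted summed counts was 17.6, with a 95% exact binomial interval of 5.75 to 87.7 that covers counting error only (adjusted p = 0.0098, and 0.062 without wild-type replicate 1). TE_homo_785 (chromosome 6, 96483 to 97232) had 37, 31 and 30 counts against 97, 73 and 79 (1.08, adjusted p = 0.041), and TE_homo_796 (chromosome 6, 146714 to 147165), the other lowered copy, had 225, 167 and 193 counts against 148, 126 and 148 (-0.73, adjusted p = 0.048). Both calls were lost whichever single library was left out, at an adjusted p of 0.065 to 0.16 for TE_homo_785 and 0.055 to 0.20 for TE_homo_796. That of TE_homo_796 was also lost under scaling by total counts (0.075) or on nuclear genes (0.065).

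In rnd-1_family-25 the called copies were TE_homo_550 and TE_homo_1581. TE_homo_550 (chromosome 4, 467396 to 468612) is 1217 bp long and lies 3548 bp from its nearest gene, the largest distance of any LINE copy. It had 3, 2 and 4 counts in wild-type cells and 28, 21 and 39 in the mutant (7.79-fold, log2 fold change 2.96, SE 0.44, adjusted p = 0.0052). TE_homo_1581 (chromosome 9, 749070 to 749206) is 137 bp long and had 51, 84 and 46 counts against 226, 228 and 221 (1.64, SE 0.29, adjusted p = 0.013, and 0.065 without wild-type replicate 1). The remaining 65 tested copies of this family had log2 fold changes from -1.81 to 2.13, with a median of -0.040, and 5 copies held 43.8% to 45.9% of its counts in every library.

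**Figure D4:**
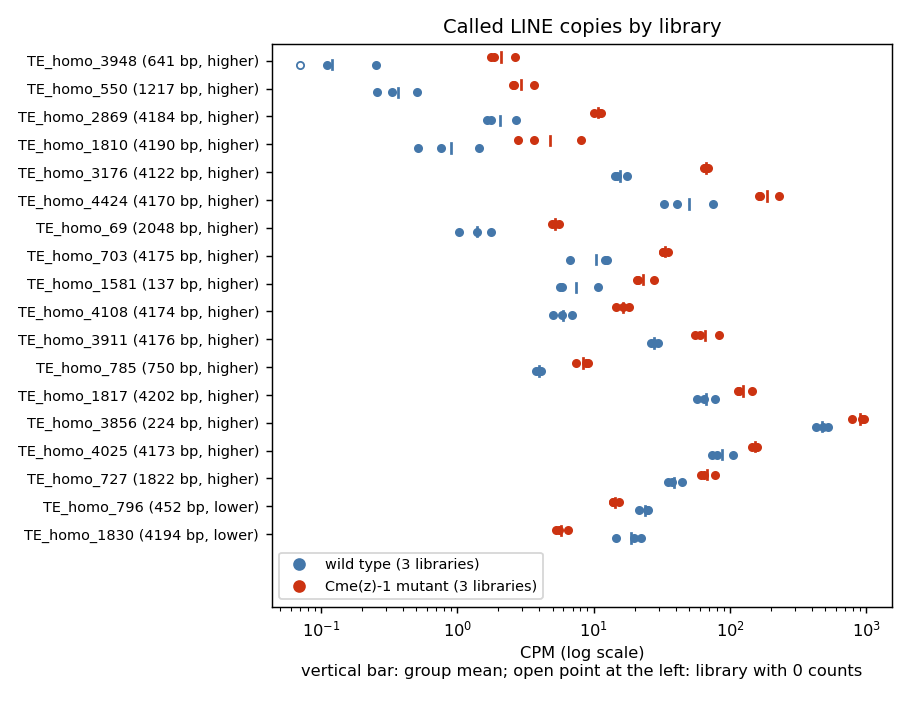
CPM on a log axis of the 18 called LINE copies, 1 point per library, 3 per group, with a bar at each group mean and an open point for the library with 0 counts. In none of the 18 copies do the groups overlap, but the copies were chosen by a test on these same values, so this adds no support. TE_homo_3856 has the highest level, at 474 and 892 CPM on average.

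Few LINE copies lie close to a chromosome end, as in other TE classes. Distance was counted from position 1 or from the last annotated base of a chromosome. The median copy lay 184678 bp away, against 211066 bp for other TE classes. Within 20 kb there were 249 of the 4726 copies of other TE classes and 9 of the 232 LINE copies. Of these 9 LINE copies 3 were tested and 1 was higher, TE_homo_727 at 16026 bp. Without wild-type replicate 1 none was called there. Other TE classes had 54 of 149 tested copies higher within 20 kb and 127 of 2508 (5.06%) beyond. For LINE copies beyond 20 kb the numbers were 15 of 107 (14.02%), of which 13 of 40 were in rnd-1_family-24 (32.5%). The copies nearest to an end were TE_homo_756 of rnd-1_family-24 (chromosome 6, 15643 to 16380) and TE_homo_729 of rnd-1_family-25 (chromosome 5, 523509 to 523798). TE_homo_756 had 16, 29 and 11 counts in wild-type cells and 23, 16 and 28 in the mutant, which overlap (-0.033, SE 0.43, adjusted p = 0.98), and TE_homo_729 had too few counts to test.

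The families differed in how often their copies overlap gene models. Of the 53 copies of rnd-1_family-24 23 overlapped an annotated gene, and of the 179 copies of rnd-1_family-25 9 did. The median distance to a gene over all LINE copies was 315 bp, with overlap counted as 0. Among tested copies of rnd-1_family-24, 7 of 22 that overlap a gene were higher, 2 of 6 at 1 to 500 bp and 5 of 15 farther away, which are 31.8%, 33.3% and 33.3%. Other TE classes had 12.8%, 5.93% and 6.92% of tested copies higher in these classes of distance. Without wild-type replicate 1 the copies over 500 bp from a gene that were called higher, both families together, went from 6 to 3. For rnd-1_family-25 the numbers were 0 of 1, 1 of 45 and 1 of 21. Over both families, 3 of 51 tested LINE copies at 1 to 500 bp and 6 of 36 farther away were higher, 9 in all, and 1 was lower.

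Of the 18 copies of 4000 bp or more 15 contained a gene model, on the same strand as the copy in all 15 and wholly inside it. Counted from the first base of the copy along its strand, 8 of the 15 ended between base 2446 and base 2481. The lengths of these 8 ran from 244 bp for CMJ290C to 1048 bp for both CMJ308C and CMK165C. A gene on the opposite strand, CMJ309C, lies in TE_homo_1830 as well. The products of these genes are not named in the annotation used here.

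**Figure D5:**
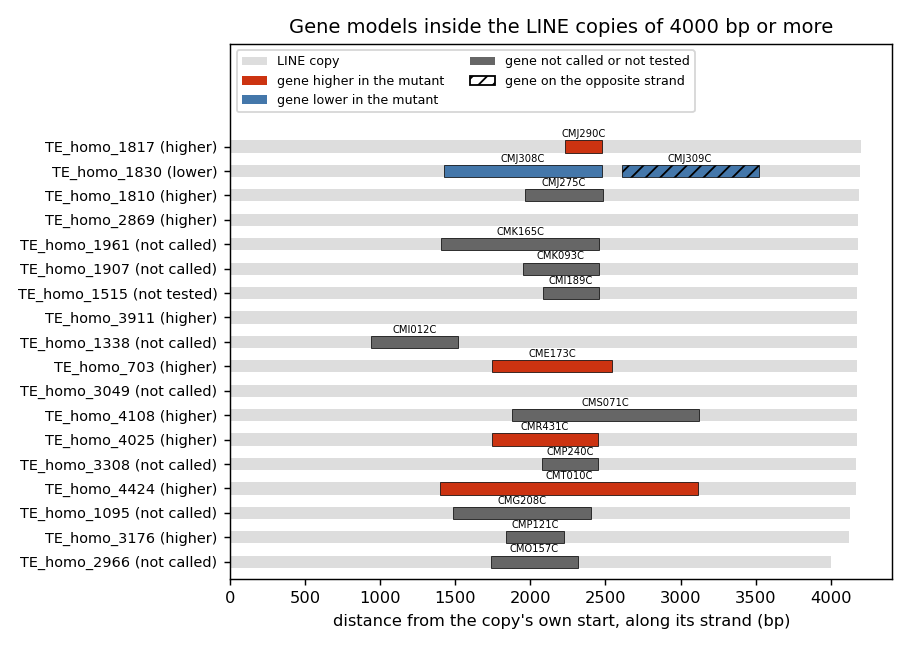
Gene models inside the 18 LINE copies of 4000 bp or more, drawn from the first base of each copy along its own strand in bp. Grey bars are copies, coloured boxes genes, by call; 8 of the 15 same-strand genes end between 2446 and 2481 bp.

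The called gene models inside LINE copies had the direction of their copies. Reads counted for both gene and copy would give this agreement by themselves, so it adds no support to the calls. Of 24 genes wholly inside a LINE copy 18 were tested, 4 were higher and 2 lower. Over all tested genes 1.29% were called higher and 1.83% lower. CMT010C (chromosome 20, 28954 to 30675) in TE_homo_4424 rose from 7.44 ± 3.22 to 26.4 ± 0.642 CPM (edgeR, log2 fold change 1.82, SE 0.31, adjusted p = 0.0098). CME173C in TE_homo_703 had 7, 12 and 5 counts in wild-type cells and 60, 41 and 83 in the mutant (2.63, SE 0.41, adjusted p = 0.0061). CMJ290C in TE_homo_1817 (0.79, adjusted p = 0.0495) and CMR431C in TE_homo_4025 (0.81, adjusted p = 0.048) passed narrowly. CMJ290C lost its call with any 1 library left out (0.057 to 0.16), and CMR431C without replicate 1 (0.21) or 3 (0.13) of the wild type and without mutant replicate 1 (0.19), mutant replicate 2 (0.061) or mutant replicate 3 (0.099). In TE_homo_1830 both genes fell, CMJ309C from 13.6 ± 2.71 to 2.82 ± 0.507 CPM (-2.27, adjusted p = 0.0019) and CMJ308C from 13.3 ± 1.09 to 3.87 ± 0.713 CPM (-1.77, adjusted p = 0.0039).

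Gene and copy were not one measurement in TE_homo_3888. CMR265C, wholly inside TE_homo_3888, had 131, 95 and 69 counts in the wild type where the copy had 76, 68 and 46, so the reads of this gene were not all counted for the copy. Whether other reads were counted for both is not given in the sources used here. Without strand, reads from a gene, from the copy around it and from an antisense transcript cannot be told apart. Of the other genes inside raised copies CMP121C, in TE_homo_3176, had 2.30 ± 0.906 and 5.78 ± 0.463 CPM (1.33, adjusted p = 0.063). CMJ275C and CMS071C had too few counts to test, with 1, 0 and 3 against 16, 8 and 19 counts for CMJ275C in TE_homo_1810, and 1, 0 and 0 against 12, 7 and 16 for CMS071C in TE_homo_4108.

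For the 10 called copies without gene overlap the nearest gene lay 225 to 3548 bp away. All 10 genes had enough counts to be tested and none was called, which is near the share of 1.29% higher and 1.83% lower over all tested genes and is no result about these neighbours. Their log2 fold changes ran from -0.24 for CMO012C, next to TE_homo_2869, to 0.13 for CMF038C, next to TE_homo_785. CMR191C, the gene nearest to TE_homo_3856, had 106 ± 6.005 CPM in wild-type cells and 93.2 ± 5.39 in the mutant (-0.18, SE 0.095, adjusted p = 0.38). CMD175C, nearest to TE_homo_550, had 273 ± 19.9 and 275 ± 13.5 CPM (0.0086, SE 0.10, adjusted p = 0.98). The small differences of CMR301C, CME195C, CMR341C, CMD175C and CMI284C changed sign under at least 1 other scaling or with a library left out.

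Copies without a wild-type read were mostly short and stayed near silence in the mutant. Of the 232 LINE copies 34 had 0 counts in all 3 wild-type libraries, or 14.7%, against 12.2% of all nuclear TE copies. The longest of them measured 576 bp. Many were neighbours of nearly equal length, on chromosome 9 (TE_homo_1349 and TE_homo_1351 to TE_homo_1357, 130 or 131 bp) and chromosome 3 (TE_homo_327 to TE_homo_331, 113 or 114 bp). Each such piece enters the share as a copy of its own, and reads that match several pieces may not have been counted. What part this has in the share of 14.7% was not tested. Of these 34 copies 15 had at least 1 count in the mutant, 49 counts in all, and 19 had none in any library. With the groups exchanged 30 copies had 0 counts in all mutant libraries, and 11 of them had wild-type counts, 20 in all. The mutant libraries held more counts in total than the wild-type libraries, and the part of this difference in depth in the 2 numbers was not tested. Without wild-type replicate 3 the numbers were 24 and 7. Of the copies of other TE classes silent in the wild type 221 of 570 had mutant counts (38.8%), against 44.1% of the LINE copies, and the median was 2 mutant counts in both sets.

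Of the copies silent in the wild type TE_homo_103 (rnd-1_family-25, chromosome 1, 265276 to 265485) had the most mutant counts, with 0, 6 and 6. TE_homo_327 (chromosome 3, 232382 to 232495) had 2, 6 and 1. TE_homo_676 had 1, 0 and 4, and TE_homo_962 had 3, 0 and 2. TE_homo_1676, the only one of the 4 in rnd-1_family-24 with mutant counts, had 1, 3 and 0. Of the copies silent in the mutant TE_homo_3431 had 0, 0 and 4 wild-type counts, TE_homo_3906 had 2, 0 and 2, TE_homo_2074 had 0, 2 and 1, TE_homo_4647 had 0, 0 and 2, and TE_homo_1350 had 1, 0 and 0. None had enough counts to test. A count of 0 allows up to 3 counts in a library, or 0.327 to 0.382 CPM before TMM factors in the wild-type libraries, for counting error only. No copy of 1000 bp or more was silent in the wild type. Each of the 18 called copies had at least 1 count in the wild type.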

How the data were processed

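Poly(A) RNA from 3 wild-type and 3 mutant samples was made into unstranded libraries, per the labels' protocols. The authors deposited raw counts per gene and per single TE copy for each library. Trim Galore and STAR are named, without versions, per the submitters' processing notes; how reads were counted, and what was done with those of several matching places, is not stated in the sources used here, so counts may be shared or misplaced between near-identical LINE copies. Genes are annotated on build ASM9120v1, per the file headers, and the TE annotation names EDTA. Coordinates count from 1.

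All 6 libraries were fitted in edgeR 4.0.16 (R 4.3.3) with TMM scaling, filterByExpr (minimum count 10, minimum total 15) and the quasi-likelihood test, without covariates. Benjamini-Hochberg adjustment ran over 7641 rows (4865 genes and 2776 TE copies), and an adjusted p under 0.05 was called. CPM use TMM-scaled library sizes. Counts summed by repeat family were fitted with the genes in the same way. All values after ± are SD over 3 libraries. The steps were tested on simulated data. Only rows of higher counts were changed there, and all rows had the same dispersion, so calls on scarce copies were not covered. Alternatives were other scalings, no filter or a stricter one, DESeq2 1.42.0, limma voom 3.58.1, a replicate block and leaving out each library.

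Named were the called copies, the 3 tested copies of highest wild-type CPM, the 5 longest, the copy nearest to a chromosome end in each family, up to 5 silent copies a group with the most counts in the other, and the genes overlapping or nearest to called copies. The remaining long copies, TE_homo_3773, TE_homo_2310 and the other genes inside copies were chosen after their values were seen. The copies and lists were chosen with earlier results of these data known. That CMQ156C encodes E(z) comes from the published literature. No genome sequence was used here.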

Additional observations from a re-analysis of the deposited data

How the results depend on the processing

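The 16 LINE copies called higher became 19 under scaling by total counts, 17 under scaling on nuclear genes, 18 without the low-count filter, 17 with the strict filter, 23 in DESeq2, 16 in limma voom and 11 to 17 with 1 library left out (11 without wild-type replicate 1). Of the 18 called copies 11 kept their call with each library left out and in all 8 other settings. The 2 lower copies became 1 under scaling by total counts or on nuclear genes and with any 1 library left out, 4 in DESeq2, and 1 among copies that overlap no gene, where 9 were higher; in rnd-1_family-24 the 2 lower copies likewise became 1 under both scalings and with any library left out. The 2 higher copies of rnd-1_family-25 became 4 in DESeq2 and 1 to 3 with a library left out. The sum of rnd-1_family-24 passed in DESeq2 (0.45), and that of rnd-1_family-25 ranged from -0.029 to 0.11 with a library left out.

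With the limit at 10 or 40 kb from a chromosome end, 0 or 3 copies were higher in place of 1, and 0 to 1 with a library left out. With the gene limit at 250 bp none was higher near a gene, and with 1000 bp 6 were higher near and 3 beyond, against 3 and 6 at 500 bp; the 6 became 3 to 7 with a library left out. Allowing up to 3 counts, 67 copies were silent in the wild type and 7 of those silent in the mutant had wild-type counts. With a library left out, 34 to 47 copies were silent in the wild type, 11 to 24 of them had mutant counts, and 7 to 16 silent in the mutant had wild-type counts.

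Small single differences changed sign. With a library left out, TE_homo_2619 ranged from -0.46 to 0.0035, TE_homo_756 from -0.29 to 0.48, CMR301C from -0.14 to 0.024, CME195C from -0.14 to 0.026, CMR341C from -0.24 to 0.17, CMD175C from -0.048 to 0.052 and CMI284C from -0.19 to 0.13. Under total counts TE_homo_756 was 0.039, CME195C 0.0074, CMR341C 0.044 and CMI284C 0.018, and on nuclear genes CMR341C was 0.012. TE_homo_756 was 0.084 in limma voom and 0.052 with the replicate block. The cause was not tested in any of these.

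Libraries with the same replicate number correlated at 0.022, 0.13 and 0.26 in their deviations from the group means. Pairs of unlike number ran from -0.26 to 0.14, the highest being wild-type replicate 2 with mutant replicate 1. Whether libraries of the same number share more than the number was not tested. With the replicate block 18 LINE copies were higher and 1 lower, of which 4 higher were in rnd-1_family-25, and 1 copy of rnd-1_family-24 was lower; the calls of TE_homo_1810 (adjusted p = 0.076), TE_homo_785 (0.078) and TE_homo_796 (0.088) were lost with the block. Scaling moved the median of all rows by little, from -0.011 to 0.049 at most. At these depths 122 LINE copies had too few counts to test, of which 19 had none in any library.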
